A study of Homo sapiens with 48 samples.

Results

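The genes described here encode the subunits of the BAF chromatin remodelling complexes, also called mammalian SWI/SNF. The set is a list of 31 gene names, which sets no threshold on any measured value but was drawn up with earlier results of these data known. All 31 were found among the 58870 genes of the count tables. It holds 2 ATPases, 7 core subunits, 3 actin or actin-like subunits, 3 BCL7 and 2 SS18 proteins, 5 subunits of canonical BAF, 4 of PBAF, 3 of non-canonical BAF and the 2 BCL11 proteins. RNA was sequenced from 3 established human uveal melanoma lines, 92-1, MEL202 and MP41, all of genotype WT per the labels. Each line received either the solvent DMSO or FHT-1015, an inhibitor of both BAF ATPases, SMARCA4 and SMARCA2, for 4 h or 24 h. In separate libraries, 92-1 cells received IDE196, an inhibitor of protein kinase C, or a DMSO control of its own for the same times. Each of the 16 groups had 3 libraries, 48 in all, which the titles call biological replicates. The labels used here give no dose, and they do not say whether replicates were separate cultures, so p-values measure only the spread between these samples. Each line is 1 cell line and stands for no other tumour.

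BAF complexes use the energy of ATP to slide or evict nucleosomes, which opens enhancers and promoters to transcription factors. Each complex carries a single ATPase, either SMARCA4 (BRG1) or SMARCA2 (BRM), on a shared core. Canonical BAF is marked by ARID1A or ARID1B and a DPF protein, PBAF by ARID2, PBRM1, BRD7 and PHF10, and non-canonical BAF by BRD9 with BICRA or BICRAL. In melanocytic cells the complex works with the lineage factors MITF and SOX10. FHT-1015 acts on the enzyme, so the values below describe how much RNA of each subunit the cells held and not how much complex they had or how active it was.

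The libraries held between 11394088 and 32317711 reads in genes. A MEL202 library given FHT-1015 for 4 h, replicate 2, stood apart with 17592 genes holding a read, against at least 20023 in every other library, and results whose call or direction it decides are also given without it. Of 10 melanocytic marker genes, 10 averaged at least 1 CPM (counts per 1e6 reads) under DMSO in 92-1 and MEL202 and 9 in MP41. FHT-1015 lowered 10 of 10 of them in 92-1, 9 of 10 in MEL202 and 9 of 9 tested in MP41 at 24 h, so the treated cells had also lost much of their melanocytic RNA. At 4 h 6 of 10 were already called lower in 92-1, with SOX10 at a log2 change of -4.94. In MEL202 and MP41 at 4 h 1 was called lower in each, SOX10 (-3.04 and -2.26). In 92-1 the sum of these 10 markers was 19400 to 22500 CPM under DMSO and 4800 to 5280 CPM after 24 h of FHT-1015. The sum of 4 fibroblast markers was 3.22 to 3.76 CPM and 10.4 to 11.8 CPM in the same groups, with 1 of 4 at 1 CPM or more in each group and reads of all 4 in both. Of this list COL1A1 was called higher (1.92 ± 0.20, adjusted p = 8.47e-07) and LUM lower (-1.84 ± 0.67, adjusted p = 0.0267), and the median over the 2 genes tested was 0.04. The sum of 4 neuron markers was 1.15 to 3.82 CPM under DMSO and 4.77 to 7.93 CPM after the drug, with SNAP25 called higher (1.42 ± 0.28, adjusted p = 0.000435) and a median of 1.30 over 2 genes tested. The sum of 4 leukocyte markers in MEL202 at 24 h was 2.1 to 2.14 CPM and then 1.46 to 2.48 CPM, with PTPRC called lower (-3.20 ± 0.88, adjusted p = 0.0208). The sum of 3 epithelial markers there was 0.234 to 0.43 CPM and then 0.243 to 3.96 CPM, with a median change of 3.85 over 2 genes tested and 0 called by edgeR. The sum of 3 endothelial markers in MP41 at 24 h was 0.651 to 1.81 CPM and then 0.418 to 0.579 CPM, with VWF called lower (-2.11 ± 0.68, adjusted p = 0.0262). Their part in the results below was not tested. With bulk RNA, fewer cells of a kind and less RNA per cell cannot be told apart.

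A gene was called when edgeR's quasi-likelihood test gave a Benjamini-Hochberg adjusted p under 0.05 over all genes tested. Called and not called refer to this test unless another analysis is named. In 92-1 cells, FHT-1015 changed the RNA of many subunits, in both directions. At 24 h, 12 of 29 members tested were higher and 9 were lower, where 29.2% of all 15685 genes tested were called higher and 31.4% lower. At 4 h, 7 members were higher and 4 lower, against 12.9% and 16.7% of all genes. With offsets for GC content and gene length the split at 4 h was 14 higher to 3 lower, where 5557 of 15685 genes were called in all. With all 48 samples in 1 fit 3 members were higher, without SMARCA4, ARID1B, DPF2 and ARID2, where 2089 of 18871 genes were called. The members' median log2 change in 92-1 was 0.08 at 4 h and 0.16 at 24 h, beside 0.01 and 0 over all genes tested.

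Fewer members passed the test in the other lines, whose replicates varied more. The coefficient of variation between replicates that edgeR estimated was 0.294 in MEL202 and 0.217 in MP41, against 0.117 in 92-1. In MP41 at 24 h, 6 of 30 members tested were higher and 6 lower, beside 17.4% and 18.7% of all genes. Without the MP41 library given DMSO for 24 h, replicate 3, the count of lower members became 11, with SMARCA4, SMARCB1, SMARCD1, BCL7B and BCL7C added. Calls over all genes also rose in that analysis, to 7905 of 16035. In that analysis PHF10 was called among the higher members and SMARCC2 and ARID1B were not. In MEL202 at 24 h, 1 of 28 was higher and 2 were lower, beside 8.69% and 10.1%. Relative log expression in place of edgeR's default scaling made this 2 higher and 2 lower, and GC and length offsets 7 and 3, where 2984 and 4922 of all genes were called. Without the library with few genes, 3 were higher, with SMARCD3 and BCL11A added, and 4030 of 16359 genes were called.

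At 4 h few genes of any kind were called in these lines. In MEL202, 1 member was higher, where 0.157% of all genes were higher and 0.522% lower. edgeR called 0 members lower there, as did DESeq2 and limma-voom, with 0 at an unadjusted p under 0.05, beside 4.88% of all genes. limma-voom was run throughout with quality weights per library. In MP41 at 4 h edgeR called 0 members in either direction, beside 0.0708% of all genes higher and 0.154% lower. At an unadjusted p under 0.05 it gave 1 member higher, BICRAL, and 1 lower, SS18L1, beside 1.96% and 3.82% of all genes at that threshold. DESeq2 also called 0, and limma-voom called the same count of 1 in each direction.

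**Figure D1:**
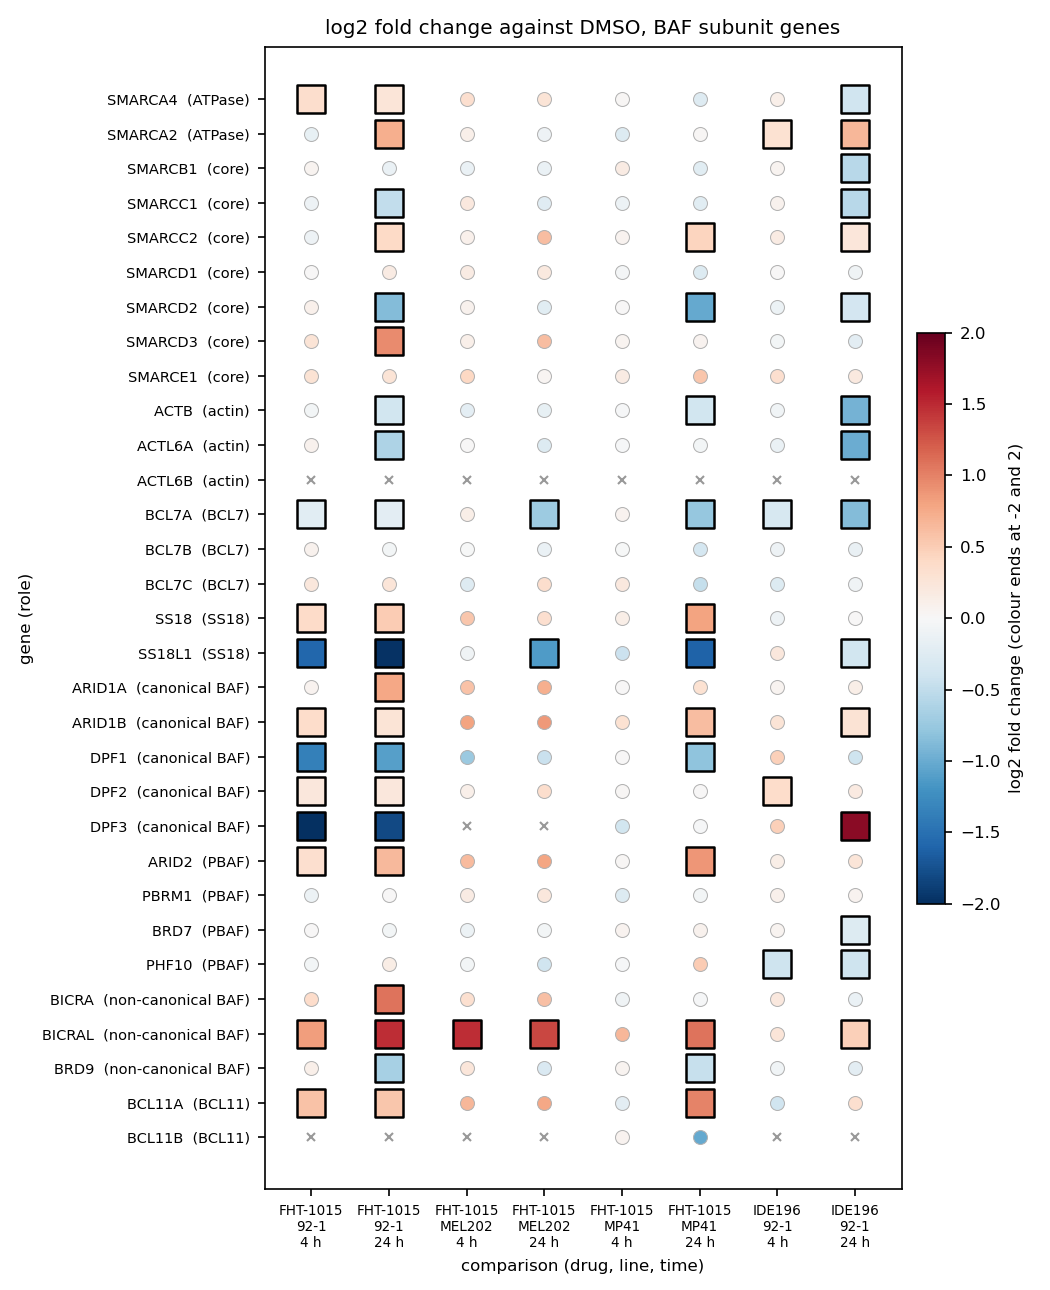
The log2 fold change of each member (rows, with role) in each drug comparison against DMSO (columns); large squares with black edges passed the adjusted p of 0.05, small circles did not, crosses were not tested, and colour gives the log2 fold change. The row of BICRAL is called higher in 5 of the 6 FHT-1015 columns and that of SS18L1 lower in 4, while 92-1 at 24 h holds the most called members, 21.

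Over the 3 lines together, 13677 genes were tested in each, among them 28 members. At 24 h, 1 member was called higher in all 3 lines, BICRAL, where 5.04% of the genes were, and 2 were called lower in all 3, SS18L1 and BCL7A, where 7.65% were. At 4 h edgeR called 0 members in all 3 lines in either direction, where 0.0366% of genes were called higher and 0.0512% lower. The 3 members called in every line at 24 h belonged to non-canonical BAF, the SS18 pair and the BCL7 proteins, 1 gene of each. They were 3.57% (higher) and 7.14% (lower) of the 28 members, no more than the shares of all genes.

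The promoters of these 3 genes are shown because they are the members called in the same direction in every line. At 24 h the treated libraries lay above the controls in all 3 lines for 6 of 28 members (BICRAL, SS18, SMARCC2, ARID1B, ARID2 and BCL11A) and below them for 3 (SS18L1, BCL7A and BRD9), beside 11.3% and 12% of all 13677 genes tested in each line. For ARID1B in MP41 the gap was smaller than the rounding of the values given here. RefSeq windows on GRCh38.p14 were found by symbol for 26 of the 31 members, and each window below is the 250 bases before the start site, 5′ to 3′ on the plus strand, on which all 3 genes lie. Capitals mark matches, on either strand, to the letters GGGCGG, known as the GC box. Capitals also mark matches to the pentamer CCAAT, and no such matches overlap each other here. The letters CACGTG (E-box), ACAAAG (SOX), TGACTCA (AP-1), TGACGTCA (CRE) and CGGAAG (ETS) were also searched on both strands and are not in these 3 windows.
SS18L1, chr20:62143519-62143768, plus strand: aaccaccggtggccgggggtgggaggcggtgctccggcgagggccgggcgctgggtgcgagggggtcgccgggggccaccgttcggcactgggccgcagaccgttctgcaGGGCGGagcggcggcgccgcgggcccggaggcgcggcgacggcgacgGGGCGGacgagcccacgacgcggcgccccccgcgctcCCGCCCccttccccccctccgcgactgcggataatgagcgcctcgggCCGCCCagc
BICRAL, chr6:42746737-42746986, plus strand: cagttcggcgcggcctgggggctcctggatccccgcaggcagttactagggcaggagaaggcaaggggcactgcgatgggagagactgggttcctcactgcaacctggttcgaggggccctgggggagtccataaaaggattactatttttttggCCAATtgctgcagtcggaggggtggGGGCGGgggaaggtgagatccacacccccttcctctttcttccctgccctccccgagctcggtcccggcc
BCL7A, chr12:122021634-122021883, plus strand: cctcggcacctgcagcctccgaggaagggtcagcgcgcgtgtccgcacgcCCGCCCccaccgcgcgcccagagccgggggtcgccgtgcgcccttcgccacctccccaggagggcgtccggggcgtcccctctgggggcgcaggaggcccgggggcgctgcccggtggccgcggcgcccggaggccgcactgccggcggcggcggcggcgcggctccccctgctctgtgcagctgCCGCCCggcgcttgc
Of 35116 windows in the table, 42.6% hold the GC box, 32.0% the pentamer, 6.34% the E-box, 13.7% the SOX letters, 4.20% the AP-1 letters, 1.65% the CRE letters and 16.5% the ETS letters. Among the 26 members with a window, 22 hold the GC box and 12 the pentamer, so the GC box is not particular to these 3 genes. The window of SS18L1 is 81.6% G or C with 42 CpG pairs, that of BCL7A 82.4% with 38 and that of BICRAL 63.2% with 11, beside a median of 58.0% G or C over the table. BICRAL has 3 start sites in the table, and the one nearest the annotated gene start is shown. The window of BCL7A lies inside the gene as GENCODE annotates it, since that start is further upstream. A match is a description of letters and shows no binding.

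SS18L1 (CREST; ENSG00000184402.15, chromosome 20, 62143795 to 62182484, GRCh38) is the neuronal relative of SS18, and like it is a small subunit of canonical and non-canonical BAF. In 92-1 it held 192, 218 and 206 CPM under DMSO at 24 h and 45.8, 55.6 and 55.8 CPM after FHT-1015. Every treated library lay far below every control library, and the fall was 3.92-fold (log2 change -1.97 ± 0.09 SE, adjusted p = 5.95e-11). At 4 h the fall was already 3.01-fold in 92-1, from 184, 190 and 186 CPM to 61.3, 63.4 and 61.8 CPM (-1.59 ± 0.09, adjusted p = 5.11e-09).

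SS18L1 in MEL202 at 24 h went from 97.3, 82.4 and 85.8 CPM to 42.1, 39.9 and 39.2 CPM, a 2.19-fold fall (-1.13 ± 0.18, adjusted p = 0.000803). In MP41 it went from 73.9, 82.2 and 83 CPM to 25.8, 27 and 24.7 CPM, a 3.07-fold fall (-1.62 ± 0.14, adjusted p = 1.87e-06). The groups did not overlap in either line. At 4 h edgeR did not call it in these lines. MEL202 gave 76.1, 86.2 and 68.3 CPM under DMSO and 67.9, 84 and 65.3 CPM with drug, and these groups overlapped. MP41 gave 72.6, 77.8 and 63 CPM and then 55.5, 55.4 and 47.4 CPM, which did not overlap, at an adjusted p of 0.369 by edgeR and 0.00531 by limma-voom, which called it lower.

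The level per length of SS18L1 and SS18 changed places in 92-1, with CPM scaled within the 12 libraries of each line's FHT-1015 set. Under DMSO at 24 h SS18L1 stood at 45.7 CPM per kilobase of transcript and SS18 at 24.0, while after FHT-1015 SS18L1 stood at 11.7 and SS18 at 33.9. SS18, the widely expressed member of the pair, rose in 92-1 by 0.38 ± 0.09 at 4 h and 0.50 ± 0.09 at 24 h on the log2 scale (adjusted p = 0.00356 and 0.000143). It rose by 0.81 ± 0.15 in MP41 at 24 h (adjusted p = 0.00111), and in MEL202 its log2 change of 0.34 ± 0.20 did not pass (adjusted p = 0.286), although limma-voom called it (adjusted p = 0.00286). In MEL202 and MP41 the level per kilobase of SS18 was above that of SS18L1 with and without the drug.

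BICRAL (GLTSCR1L; ENSG00000112624.12, chromosome 6, 42746958 to 42868560) is 1 of the alternative scaffold subunits of non-canonical BAF. Among the members it gave the largest called rise with FHT-1015 in each line. In 92-1 at 24 h it held 29.8, 23.4 and 28 CPM under DMSO and 74.1, 73.5 and 78.1 CPM after FHT-1015, a 2.77-fold rise (1.47 ± 0.10, adjusted p = 7.98e-09). In MEL202 it went from 24.5, 38.4 and 32.2 CPM to 79.4, 76.8 and 82.4 CPM (1.33 ± 0.30, adjusted p = 0.00674). MP41 had the lowest level and went from 8.03, 7.6 and 10.4 CPM to 22.4, 15.4 and 17.3 CPM (1.08 ± 0.20, adjusted p = 0.00105). No control library reached the treated ones in any line at 24 h.

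At 4 h BICRAL was also higher in 92-1, from 28.6, 32.2 and 29 CPM to 56.4, 55.5 and 48.3 CPM (0.84 ± 0.10, adjusted p = 1.54e-05). In MEL202 it was the member called at that time, from 22.4, 32.6 and 14.2 CPM to 61.6, 84.8 and 46.8 CPM (1.48 ± 0.30, adjusted p = 0.0404). The groups did not overlap, but the call was lost on leaving out any of 11 of the 12 libraries, and without the library with few genes the change was 1.23 at an adjusted p of 0.0846. In MP41 at 4 h the values were 6.54, 8.5 and 8.97 CPM under DMSO and 12.2, 14 and 11.7 CPM with drug, apart from each other at an adjusted p of 0.362 by edgeR. Of 9 alternatives 2 called it higher there, limma-voom and GC and length offsets (lowest adjusted p = 0.0144).

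BCL7A (ENSG00000110987.8, chromosome 12, 122019422 to 122062044) is an accessory subunit of the BCL7 family. In MEL202 at 24 h it went from 106, 109 and 112 CPM to 55.1, 74.7 and 68.7 CPM (-0.72 ± 0.22, adjusted p = 0.0338). This call was lost on leaving out any of the 6 libraries at 24 h, with an adjusted p of up to 0.155. In MP41 it went from 79, 89.3 and 73.2 CPM to 49.8, 46.1 and 45.7 CPM (-0.77 ± 0.13, adjusted p = 0.000589).

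In 92-1 the fall of BCL7A was small. The values at 24 h were 73.8, 78.7 and 86.3 CPM under DMSO and 68.6, 69.3 and 68 CPM after FHT-1015 (-0.21 ± 0.08, adjusted p = 0.029). At 4 h they were 83.1, 82.1 and 87.4 CPM and then 74.3, 68.1 and 72.5 CPM (-0.23 ± 0.08, adjusted p = 0.0354). The groups did not overlap, but either call was lost in 4 of 9 alternative analyses and on leaving out any of 4 libraries. In these analyses the change ranged from -0.25 to -0.09 at 24 h and from -0.28 to -0.06 at 4 h. At 4 h BCL7A was not called in MEL202 (128, 95.3 and 77.3 CPM, then 100, 131 and 100 CPM) or in MP41 (77.5, 66.8 and 80.2 CPM, then 81.3, 75.3 and 78.8 CPM). Its relatives BCL7B and BCL7C were called by edgeR in no drug comparison.

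**Figure D2:**
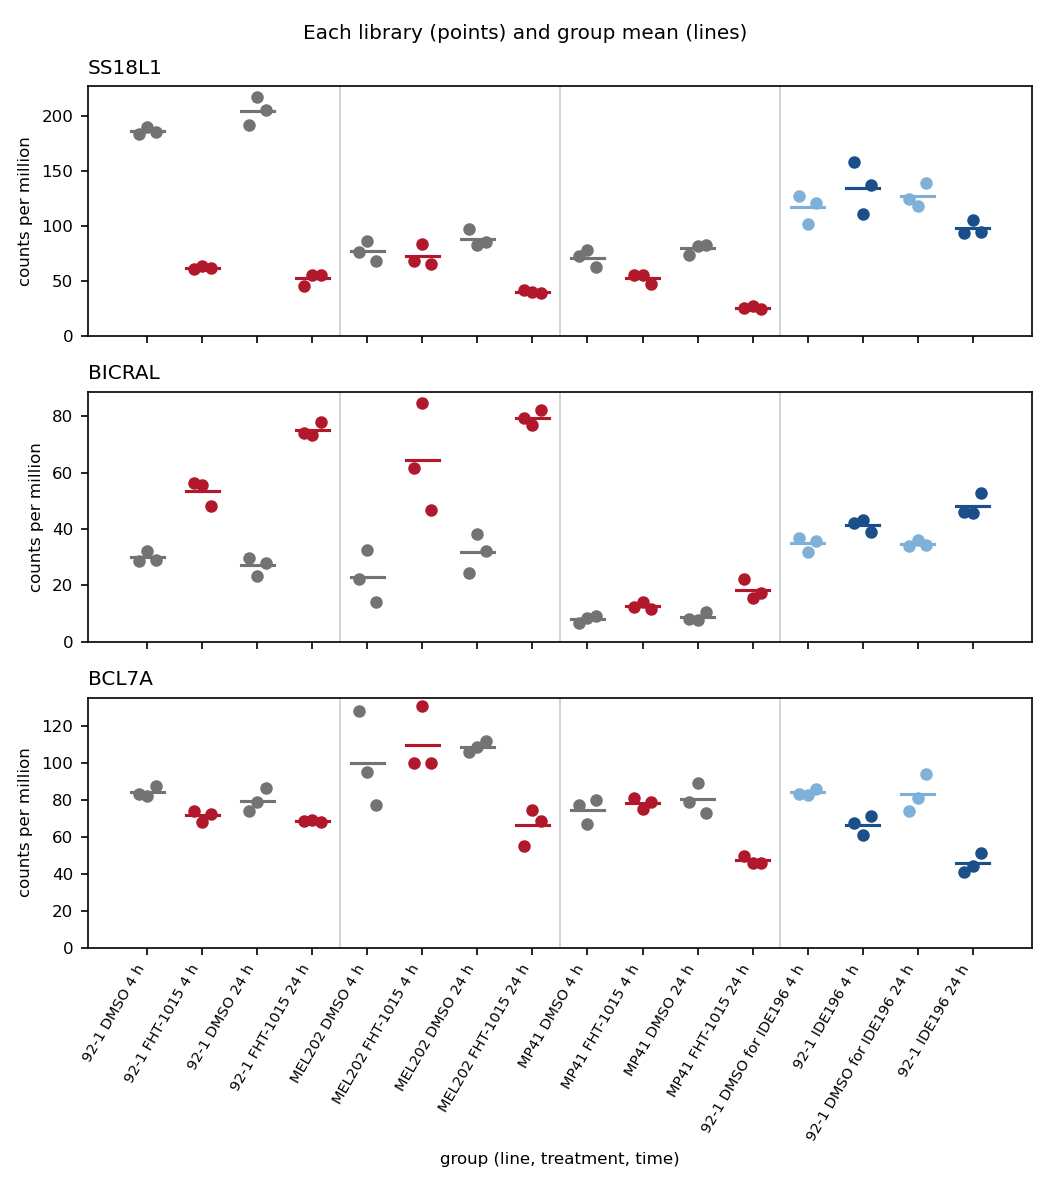
CPM of SS18L1, BICRAL and BCL7A in each of the 48 libraries (points) with group means (lines) by line, treatment and time; grey is DMSO, red FHT-1015, light blue the DMSO control of IDE196 and dark blue IDE196. At 24 h the red points of SS18L1 lie between 24.7 and 55.8 CPM, below all grey points, and those of BICRAL lie above the grey points of their own line.

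SMARCA4 is the more abundant of the ATPases that FHT-1015 inhibits. In 92-1 it rose from 279, 303 and 308 CPM to 342, 374 and 414 CPM at 4 h (0.35 ± 0.09, adjusted p = 0.00665). At 24 h it rose from 251, 279 and 286 CPM to 337, 327 and 308 CPM (0.25 ± 0.09, adjusted p = 0.0193). Treated libraries lay above controls at both times. The call at 24 h was lost on leaving out DMSO replicate 1, FHT-1015 replicate 1 or FHT-1015 replicate 2 of that time, with an adjusted p of up to 0.0993. It was also lost in edgeR fits of all 48 samples and without the filter on low counts (adjusted p up to 0.334).

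SMARCA4 spread widely within the groups of MEL202. At 4 h it was 595, 455 and 290 CPM under DMSO and 442, 842 and 398 CPM with drug (0.33 ± 0.30, adjusted p = 0.878). At 24 h it was 341, 444 and 357 CPM and then 483, 459 and 439 CPM (0.27 ± 0.30, adjusted p = 0.591). The highest value, 842 CPM, came from the library with few genes, and without it the change at 4 h was -0.09 (adjusted p = 0.953). MP41 gave 443, 500 and 466 CPM and then 442, 539 and 447 CPM at 4 h (adjusted p = 1). At 24 h it gave 651, 890 and 461 CPM and then 736, 479 and 456 CPM (-0.26 ± 0.23, adjusted p = 0.388). These groups overlapped, and without DMSO replicate 3 of that time the change was -0.54 and passed (adjusted p = 0.0295). limma-voom called SMARCA4 at 24 h in opposite directions, higher in MEL202 (adjusted p = 0.027) and lower in MP41 (adjusted p = 0.00878). No difference between the lines passed for it at 24 h (adjusted p = 0.322).

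SMARCA2, the alternative ATPase, rose in 92-1 at 24 h, from 49.8, 41.2 and 43.6 CPM to 77.9, 67.1 and 78 CPM. This was a 1.66-fold rise (0.73 ± 0.10, adjusted p = 2.01e-05) in which no libraries overlapped. At 4 h it was 45.5, 46.2 and 45.2 CPM under DMSO and 44.4, 42.8 and 35.3 CPM with drug (-0.16 ± 0.10, adjusted p = 0.276). In MEL202 it was 56.4, 78.4 and 71.6 CPM and then 66.2, 66.7 and 60.3 CPM at 24 h (-0.10 ± 0.20, adjusted p = 0.8). At 4 h MEL202 gave 71.8, 81.3 and 54.5 CPM and then 81.1, 76.8 and 67.5 CPM (adjusted p = 0.953). In MP41 SMARCA2 was 53.9, 47.7 and 58.6 CPM and then 63.7, 45.5 and 54.7 CPM at 24 h (0.03 ± 0.15, adjusted p = 0.888). At 4 h MP41 gave 57.5, 52.1 and 56 CPM and then 44.1, 44.5 and 49.1 CPM (adjusted p = 0.996). The rise at 24 h was therefore called in 92-1, and the test of line differences below bears on it directly.

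**Figure D3:**
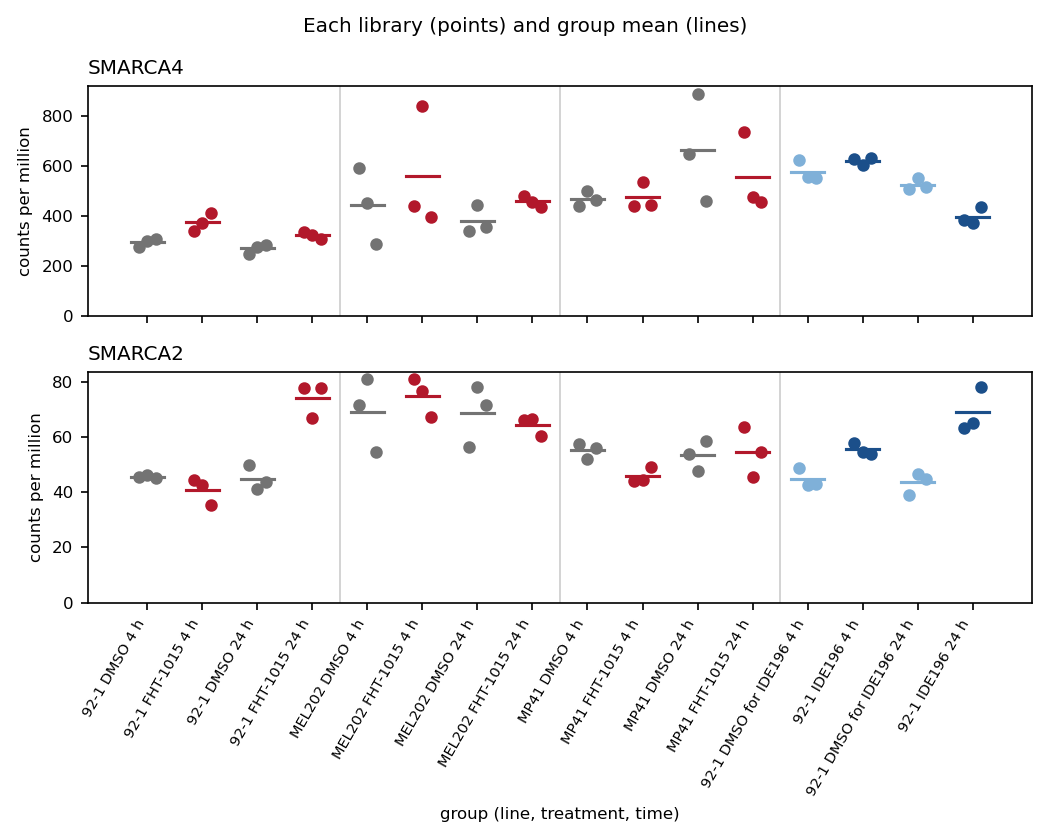
CPM of SMARCA4 and SMARCA2 in each of the 48 libraries (points) with group means (lines); colours are grey for DMSO, red for FHT-1015, light blue for the DMSO control of IDE196 and dark blue for IDE196. SMARCA2 in 92-1 at 24 h reaches 67.1 to 78 CPM with FHT-1015 and 63.2 to 78.4 CPM with IDE196, above 39.2 to 49.8 CPM in the matched controls.

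Among the 7 core subunits, 2 rose and 2 fell in 92-1 at 24 h, near the shares of all genes called there (29.2% and 31.4%). SMARCD2 and SMARCD3 are alternative BAF60 subunits, which link the complex to transcription factors, and they moved in opposite directions. SMARCD2 fell from 110, 110 and 114 CPM to 63.8, 62.1 and 58.1 CPM (-0.86 ± 0.08, adjusted p = 1.03e-07). SMARCD3 rose by 0.95 ± 0.10, from 26.6 to 33.4 CPM under DMSO to 55.9 to 58 CPM (adjusted p = 1.15e-06). SMARCD1, the third of these paralogues, was called by edgeR in no drug comparison.

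The scaffold subunits SMARCC1 and SMARCC2, which hold the core together as a pair, also moved apart in 92-1 at 24 h. SMARCC1 fell by 0.50 ± 0.08 (adjusted p = 3.84e-05) and SMARCC2 rose by 0.40 ± 0.07 (adjusted p = 0.000167). In MP41 at 24 h SMARCD2 went from 136, 180 and 133 CPM to 71.3, 78.4 and 70 CPM (-1.03 ± 0.14, adjusted p = 0.000106), with no overlap. SMARCC2 rose there by 0.45 ± 0.15 (adjusted p = 0.0315), a call lost on leaving out any of 7 of the 12 libraries. In the edgeR fits no core subunit was called with FHT-1015 in MEL202, nor in any line at 4 h. SMARCD3 was short of the threshold in MEL202 at 24 h (0.61 ± 0.21, adjusted p = 0.0615) and in 92-1 at 4 h (0.27 ± 0.10, adjusted p = 0.063). It passed in 5 of 9 alternative analyses in the former and 4 of 9 in the latter, DESeq2 among them in both. GC and length offsets also called SMARCB1, SMARCD2 and SMARCE1 in 92-1 at 4 h and SMARCC2 in MEL202 at 24 h. SMARCB1, the core subunit lost in rhabdoid tumours, had log2 changes between -0.23 and 0.16 over the 6 FHT-1015 comparisons. edgeR called it in none, while limma-voom called it at 24 h in 92-1 and MP41 (adjusted p = 0.0337 and 0.0317), and edgeR did in MP41 without DMSO replicate 3 of that time (adjusted p = 0.0401).

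The actin-related subunits couple the ATPase to the rest of the complex. ACTL6A (BAF53A), the form of dividing cells, fell in 92-1 at 24 h by 0.61 ± 0.09 (adjusted p = 4.55e-05). ACTB, which is also the main cytoskeletal actin, fell by 0.38 ± 0.09 in 92-1 (adjusted p = 0.00177) and by 0.39 ± 0.13 in MP41 (adjusted p = 0.0336). The MP41 call was lost on leaving out any of 5 libraries and in 3 of 9 alternative analyses, among them GC and length offsets, where the change was -0.15. ACTL6B, the neuronal counterpart of ACTL6A, had 39 reads in all 48 libraries and was not tested.

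Of the 5 subunits of canonical BAF in 92-1 at 24 h, 3 rose and 2 fell, where 29.2% and 31.4% of all genes did. DPF1, DPF2 and DPF3 are alternative histone-reading subunits, of which DPF1 and DPF3 are best known from nerve and muscle. DPF3 fell in 92-1 from 1.73, 1.59 and 1.27 CPM to 0.292, 0.133 and 0.251 CPM at 4 h (-2.74 ± 0.39, adjusted p = 7.22e-05). At 24 h it fell from 2.39, 1.91 and 2.16 CPM to 0.409, 0.951 and 0.524 CPM (-1.80 ± 0.34, adjusted p = 0.000291). The groups did not overlap at either time, but the treated libraries held only 3 to 12 reads of this gene each.

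DPF1 fell in 92-1 by 1.36 ± 0.20 at 4 h and by 1.10 ± 0.20 at 24 h on the log2 scale (adjusted p = 0.000108 and 0.000199). It fell in MP41 at 24 h by 0.80 ± 0.22 (adjusted p = 0.0123), a call lost without the MP41 library given FHT-1015 for 24 h, replicate 2 (adjusted p = 0.0557). That call was also lost with GC and length offsets and with only the samples compared, where the change was as small as -0.56 and the adjusted p as high as 0.0561. DPF3 was not called in MP41 (-0.02 ± 0.32 at 24 h, adjusted p = 0.971), and in MEL202 it was near 0, with at most 4 reads in a library. DPF2, the widely expressed paralogue, rose slightly in 92-1, by 0.22 ± 0.08 at 4 h and 0.23 ± 0.08 at 24 h (adjusted p = 0.0492 and 0.0213). The call at 4 h was lost on leaving out any of 11 of the 12 libraries, and that at 24 h on leaving out any of 3.

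ARID1A and ARID1B are mutually exclusive large subunits of canonical BAF, and ARID1A is often mutated in cancer. ARID1A rose in 92-1 at 24 h by 0.78 ± 0.11 (adjusted p = 1.64e-05), with treated libraries at 193 to 225 CPM and controls at 114 to 126 CPM. Its change in MP41 at 24 h was 0.30 by edgeR (adjusted p = 0.286), with overlapping groups, and 0.02 without DMSO replicate 3 of that time. GC and length offsets called it there (adjusted p = 0.000359). ARID1B rose in 92-1 by 0.37 ± 0.08 at 4 h (adjusted p = 0.0038) and by 0.28 ± 0.08 at 24 h (adjusted p = 0.00957), but with GC and length offsets its change at 24 h was -0.04 and was not called. In MP41 at 24 h ARID1B rose by 0.61 ± 0.19 (adjusted p = 0.023), a call lost on leaving out any of 4 libraries, and 1 treated library lay at the level of the highest control, 113 CPM. All treated libraries of MEL202 at 24 h lay above the controls for ARID1A and ARID1B, at adjusted p values of 0.267 and 0.135. Of 9 alternative analyses, 3 called ARID1A there (lowest adjusted p = 0.0015) and 5 called ARID1B (lowest adjusted p = 0.000161).

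Of the 4 PBAF subunits, ARID2 was the member called with FHT-1015. This large DNA-binding subunit rose in 92-1 by 0.34 ± 0.10 at 4 h and 0.65 ± 0.10 at 24 h (adjusted p = 0.0146 and 3.25e-05), and in MP41 at 24 h by 0.88 ± 0.19 (adjusted p = 0.00276). In MEL202 at 24 h its change of 0.79 ± 0.29 did not pass (adjusted p = 0.0731), although all treated libraries lay above the controls and 6 of 9 alternative analyses called it. With GC and length offsets the MP41 change was 0.26 and did not pass (adjusted p = 0.151). The call at 4 h was lost without DMSO replicate 2 or FHT-1015 replicate 1 of that time. PBRM1, the subunit with many bromodomains, and BRD7 and PHF10, readers of histone marks, were not called by edgeR with FHT-1015 in any line. PHF10 in MP41 at 24 h had a change of 0.50 ± 0.24 (adjusted p = 0.125), which became 0.84 without DMSO replicate 3 of that time (adjusted p = 0.000856). In MEL202 at 24 h PHF10 had a change of -0.40 ± 0.25 (adjusted p = 0.303), with all treated libraries below the controls, and 3 of 9 alternative analyses called it lower. BRD7 was called lower in 92-1 at 24 h when both strands were summed (adjusted p = 0.017).

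Non-canonical BAF gave the highest median log2 change of the role groups in 92-1 at 24 h, 1.09 over 3 genes, with 2 higher and 1 lower, where 29.2% and 31.4% of all genes were. BICRA, the paralogue of BICRAL, rose there from 20.3, 29.4 and 28.2 CPM to 57.2, 58.1 and 50.6 CPM (1.09 ± 0.19, adjusted p = 0.000131), with no overlap. BRD9, the bromodomain subunit that sets this complex apart, fell by 0.67 ± 0.10 in 92-1 and by 0.46 ± 0.12 in MP41 at 24 h (adjusted p = 2.68e-05 and 0.00914). With GC and length offsets, with the filter on low counts removed, or with the fit limited to the 6 samples compared, the BRD9 call in MP41 was lost. BICRA did not rise in MP41 at 24 h, where its change was -0.03 by edgeR (adjusted p = 0.925) and the groups overlapped. The median of the 3 genes at 24 h was -0.03 in MP41 and 0.60 in MEL202. In MEL202, BICRA and BRD9 had changes of 0.60 ± 0.30 and -0.30 ± 0.20 at 24 h, which edgeR did not call. Of 9 alternative analyses, 3 called BICRA there (lowest adjusted p = 5.8e-05) and 2 called BRD9 (lowest adjusted p = 0.0162).

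BCL11A, a zinc-finger protein and dedicated BAF subunit known from blood and brain, rose in 92-1 at 4 h from 12.6, 10.7 and 11.4 CPM to 16.3, 16.6 and 19.2 CPM (0.58 ± 0.15, adjusted p = 0.00715). At 24 h it rose there by 0.56 ± 0.15 (adjusted p = 0.00464), but by 0.34 and short of the threshold with GC and length offsets (adjusted p = 0.0667). In MP41 at 24 h it went from 14.5, 18.9 and 14 CPM to 36.1, 29.4 and 28.6 CPM (0.99 ± 0.18, adjusted p = 0.000843). No treated library overlapped a control in these comparisons. The groups were also apart in MEL202 at 24 h, 7.83 to 10.6 CPM under DMSO and 13 to 17.3 CPM with drug, with a change of 0.77 ± 0.26 just short of the threshold (adjusted p = 0.0513). BCL11A was called there in 5 of 9 alternative analyses, DESeq2 and limma-voom among them (lowest adjusted p = 3.32e-05). Of the drug fits, BCL11B was tested in that of MP41, where its change at 24 h was -1.02 ± 0.41 (adjusted p = 0.0671). DESeq2 called it (adjusted p = 0.0393).

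Whether the FHT-1015 effect differed between lines was tested directly over the 36 libraries of that drug. At 24 h the effect differed for 4 of 30 members tested, beside 12% of all genes, and at 4 h for 1 member, beside 1.38%. At 4 h this was SS18L1, which fell by 1.59 in 92-1 on the log2 scale, while MEL202 had a change of -0.09 (-0.21 without the library with few genes) and MP41 one of -0.43 (adjusted p = 3.7e-06). At 24 h it was again SS18L1, lower in all 3 lines but to a different extent, -1.97, -1.13 and -1.62 in the same order (adjusted p = 0.00434). The other members were SMARCA2, SMARCD2 and SMARCD3.

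SMARCA2 changed by 0.73 in 92-1, -0.10 in MEL202 and 0.03 in MP41 at 24 h (adjusted p of the difference 0.0076). SMARCD3 changed by 0.95, 0.61 and 0.07 (adjusted p = 0.00513), and SMARCD2 by -0.86, -0.22 and -1.03 (adjusted p = 0.00459). The count of 4 became 7 with DESeq2 and 1 without the filter on low counts. It became 7 without the MEL202 library given DMSO for 4 h, replicate 3, or without the MEL202 library with few genes, and 8 without the MP41 library given DMSO for 24 h, replicate 3. These other counts are not set here against the calls over all genes in the same analyses. For BICRAL no difference between lines passed (adjusted p = 0.435 at 4 h and 0.522 at 24 h), nor for BCL7A at 24 h (adjusted p = 0.0523).

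IDE196, which blocks protein kinase C downstream of the Gq proteins mutated in most uveal melanomas, was compared with its own DMSO control in 92-1 at both times. At 24 h, 5 of 29 members tested were higher and 10 lower, beside 28.7% of all 15437 genes higher and 29.4% lower. Of the 10 melanocytic markers 3 rose and 2 fell in that comparison, DCT rising by 3.17 ± 0.34 on the log2 scale (adjusted p = 3.63e-07). The sum of the 4 fibroblast markers was 6.24 to 9.78 CPM under DMSO and 11.1 to 17.6 CPM with IDE196, with COL1A1 called higher (0.80 ± 0.27, adjusted p = 0.0164). The part of these markers in the members' changes was not tested. With GC and length offsets the split was 3 higher to 11 lower. At 4 h, 2 were higher and 2 lower, beside 6.89% and 9.30% of all genes, and 1 and 3 with those offsets. The counts with offsets at either time are not set here against the share of all genes called in those fits. The members' median log2 change was 0.06 at 4 h and -0.13 at 24 h, beside 0.01 and 0.03 over all genes.

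The largest falls at 24 h were those of the actin-related subunits. ACTL6A went from 47.3, 47.6 and 49.4 CPM in the DMSO control of IDE196 to 24.7, 25 and 22.4 CPM, a 2.00-fold fall (-1 ± 0.1, adjusted p = 1.54e-07). ACTB went from 2860, 2590 and 2680 CPM to 1550, 1440 and 1240 CPM (-0.94 ± 0.10, adjusted p = 3.56e-07). In both genes every treated library lay below every control. BCL7A went from 73.8, 81 and 94.1 CPM to 41.1, 44.3 and 51.5 CPM (-0.86 ± 0.10, adjusted p = 1.73e-06).

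The core subunits SMARCB1, SMARCC1 and SMARCD2 fell with IDE196 at 24 h by 0.56 ± 0.12, 0.55 ± 0.10 and 0.37 ± 0.08 (adjusted p = 0.0007, 8.41e-05 and 0.00044). SMARCC2 rose by 0.24 ± 0.08 (adjusted p = 0.0169), a call lost on leaving out any of 3 libraries. The PBAF subunits PHF10 and BRD7 fell by 0.42 ± 0.09 and 0.27 ± 0.08 (adjusted p = 0.000518 and 0.00895). SS18L1 fell by 0.38 ± 0.12 (adjusted p = 0.0102), from 125, 118 and 139 CPM to 93.9, 106 and 95 CPM. At 4 h SS18L1 was 127, 102 and 121 CPM and then 158, 111 and 137 CPM, overlapping and not called (adjusted p = 0.234).

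The ATPases moved in opposite directions with IDE196 at 24 h. SMARCA4 fell from 508, 552 and 519 CPM to 387, 375 and 436 CPM (-0.40 ± 0.08, adjusted p = 0.000609). That call was lost with all 48 samples in 1 edgeR fit (adjusted p = 0.204). SMARCA2 rose from 39.2, 46.6 and 44.9 CPM to 63.2, 65.3 and 78.4 CPM (0.66 ± 0.10, adjusted p = 2.36e-05). No groups overlapped. At 4 h SMARCA2 went from 48.8, 42.5 and 43 CPM to 57.9, 54.8 and 54.1 CPM (0.31 ± 0.10, adjusted p = 0.0416), a call lost on leaving out any of 8 of the 12 libraries. SMARCA4 was 626, 558 and 554 CPM and then 629, 606 and 635 CPM at 4 h (0.11 ± 0.08, adjusted p = 0.465).

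DPF3 rose most with IDE196 at 24 h, 3.51-fold, from 0.923, 1.32 and 1.7 CPM to 3.39, 4.92 and 5.62 CPM (1.81 ± 0.35, adjusted p = 0.000231). BICRAL rose by 0.47 ± 0.09 (adjusted p = 0.000285), from 33.9, 36.2 and 34.2 CPM to 46.2, 45.8 and 52.8 CPM. At 4 h its values of 36.9, 32 and 35.7 CPM and then 42.1, 43.3 and 39 CPM were apart but not called by edgeR (adjusted p = 0.0766). limma-voom called this difference (adjusted p = 0.0466). ARID1B rose by 0.29 ± 0.09 (adjusted p = 0.0154), but its change was -0.15 and not called with GC and length offsets, and the call was lost without DMSO replicate 4 or IDE196 replicate 3 of that time.

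At 4 h the called members were DPF2 and SMARCA2, higher, and PHF10 and BCL7A, lower. DPF2 went from 60.6, 61.9 and 73.1 CPM to 87.1, 75.5 and 89.8 CPM (0.37 ± 0.10, adjusted p = 0.0152), a call lost on leaving out any of 4 libraries. PHF10 went from 59.4, 60.5 and 52.3 CPM to 46.5, 42.4 and 39.9 CPM (-0.42 ± 0.09, adjusted p = 0.00308). BCL7A went from 83.3, 82.9 and 86.1 CPM to 67.4, 61.2 and 71.4 CPM (-0.33 ± 0.10, adjusted p = 0.0334), also lost on leaving out any of 4. In all 3 genes, treated and control libraries did not overlap.

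A fit of all 24 libraries of 92-1 compared what FHT-1015 did with what IDE196 did, each relative to its matched control. At 24 h they differed for 15 of 29 members, beside 33% of the 16917 genes tested, and at 4 h for 8 members, beside 24.6%. DPF3 had the largest difference, as it fell with FHT-1015 and rose with IDE196 at 24 h (difference -3.61 ± 0.51, adjusted p = 2.52e-06). SS18L1 fell further with FHT-1015 (-1.59 ± 0.15, adjusted p = 4.03e-09), and SMARCD3 and BICRA, which rose with FHT-1015, were not called by edgeR with IDE196 (differences 1.16 ± 0.14 and 1.22 ± 0.24, adjusted p = 2.3e-07 and 0.000256). limma-voom and the sum of both strands called SMARCD3 lower with IDE196 (lowest adjusted p = 0.0321).

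SMARCA4 rose with FHT-1015 and fell with IDE196 at 24 h (difference 0.65 ± 0.12, adjusted p = 9.2e-05). BCL7A, ACTB and ACTL6A fell with both drugs, and further with IDE196 (differences 0.65 ± 0.13, 0.56 ± 0.14 and 0.39 ± 0.14, adjusted p = 0.000354, 0.00216 and 0.0293). BICRAL rose with both, and further with FHT-1015 (1.00 ± 0.13, adjusted p = 1.12e-06). For SMARCA2 and SMARCC1 the difference did not pass, at 0.06 ± 0.15 and 0.05 ± 0.12 (adjusted p = 0.785 and 0.79).

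**Figure D4:**
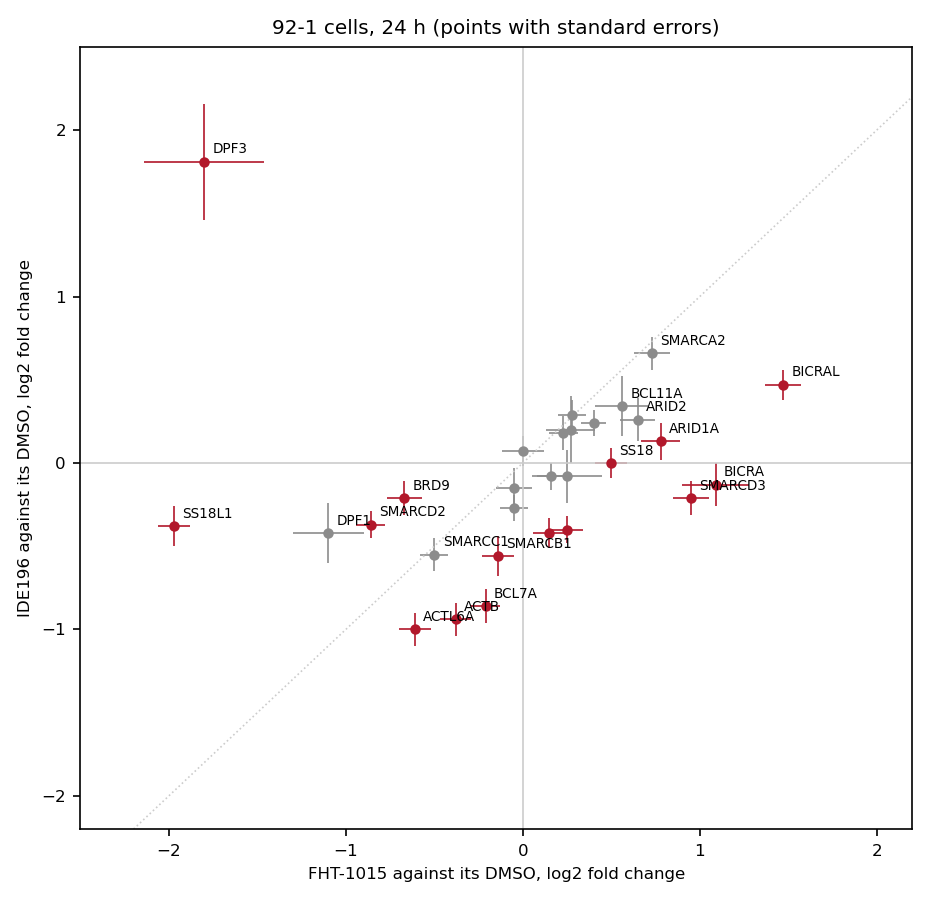
Log2 fold change of each member with FHT-1015 (x axis) and with IDE196 (y axis) in 92-1 at 24 h, with standard errors as bars; red points have a difference between the drugs past the adjusted p of 0.05, grey points do not, and the dotted line marks equal changes. DPF3 lies at the upper left (-1.80 and 1.81), SS18L1 at the far left (-1.97 and -0.38), and SMARCA2 close to the line (0.73 and 0.66).

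Under DMSO the levels of the members, given per kilobase of the principal transcript so that genes can be compared, spanned a wide range. These levels were scaled over all 24 DMSO libraries together and so differ somewhat from the CPM above, which were scaled within 12 libraries. In 92-1 at 24 h ACTB stood highest at 1090 ± 60.3 CPM per kilobase (SD, n = 3), followed by SMARCA4 at 46.6 ± 3.00, SMARCC1 at 45.8 ± 2.05 and SS18L1 at 45.3 ± 2.67, which did not differ beyond their spread. SMARCA2 was at 7.58 ± 0.785 in these cells. In MEL202 SMARCA4 and SMARCA2 stood at 63.9 ± 8.29 and 11.4 ± 1.76, and in MP41 at 111 ± 40.4 and 8.70 ± 0.537. SMARCA4 was thus the more abundant ATPase RNA in all lines. Among the members with few reads, DPF3 was at 1.87 ± 0.215 in 92-1 and 1.82 ± 0.538 in MP41. SMARCE1 and BICRAL had lower means per kilobase than DPF3 in MP41. BCL11B was at 0.371 ± 0.104 in MP41, with no read in any DMSO library of the FHT-1015 set of 92-1.

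With both times averaged, the levels under DMSO differed for 20 of 30 members between MEL202 and 92-1, 19 between MP41 and 92-1 and 21 between MP41 and MEL202, beside 55.4%, 67.3% and 58.3% of all 17286 genes tested. BICRAL was lower in MP41 than in 92-1 by a log2 difference of -1.86 ± 0.16 (adjusted p = 4.5e-10) and BRD7 by -1.58 ± 0.10 (adjusted p = 4.14e-12). SS18L1 was lower than in 92-1 in both other lines, by -1.27 ± 0.10 in MEL202 and -1.46 ± 0.10 in MP41 (adjusted p = 1.28e-10 and 6.01e-12). SMARCD3 was higher in MEL202 than in 92-1 by 1.14 ± 0.12 (adjusted p = 2.52e-08). ARID1B was lower in both other lines, by -1.10 ± 0.17 and -1.13 ± 0.17 (adjusted p = 1.15e-05 and 5.13e-06).

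The separate DMSO libraries of 92-1 made for IDE196 show how far sets of libraries of a single line can lie apart. They differed from the FHT-1015 set for 15 of 30 members, beside 39.1% of all genes. At 24 h the sum of 3 epithelial markers was 2.07 to 16 CPM in them and 0.740 to 0.863 CPM in the FHT-1015 set, and that of 4 fibroblast markers 6.24 to 9.78 CPM and 3.22 to 3.76 CPM. Their part in the difference was not tested. SMARCA4 was higher in them by 1.07 ± 0.15 (adjusted p = 1.64e-05), SMARCC1 by 0.93 ± 0.15 and BCL11A by 0.99 ± 0.15 (adjusted p = 4.53e-05 and 2.34e-05), while SS18L1 was lower by -0.57 ± 0.10 (adjusted p = 9.73e-05). Scaled within their own 12 libraries, the 92-1 sets held SMARCA4 at 47 and 90.9 CPM per kilobase at 24 h, beside 46.6 and 97.4 when scaled together. The difference in SMARCA4 was as large as that between MP41 and 92-1, 0.90 ± 0.15. A difference between lines and a difference between sets of libraries cannot be told apart here. Each drug comparison above used the DMSO libraries of its own set.

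**Figure D5:**
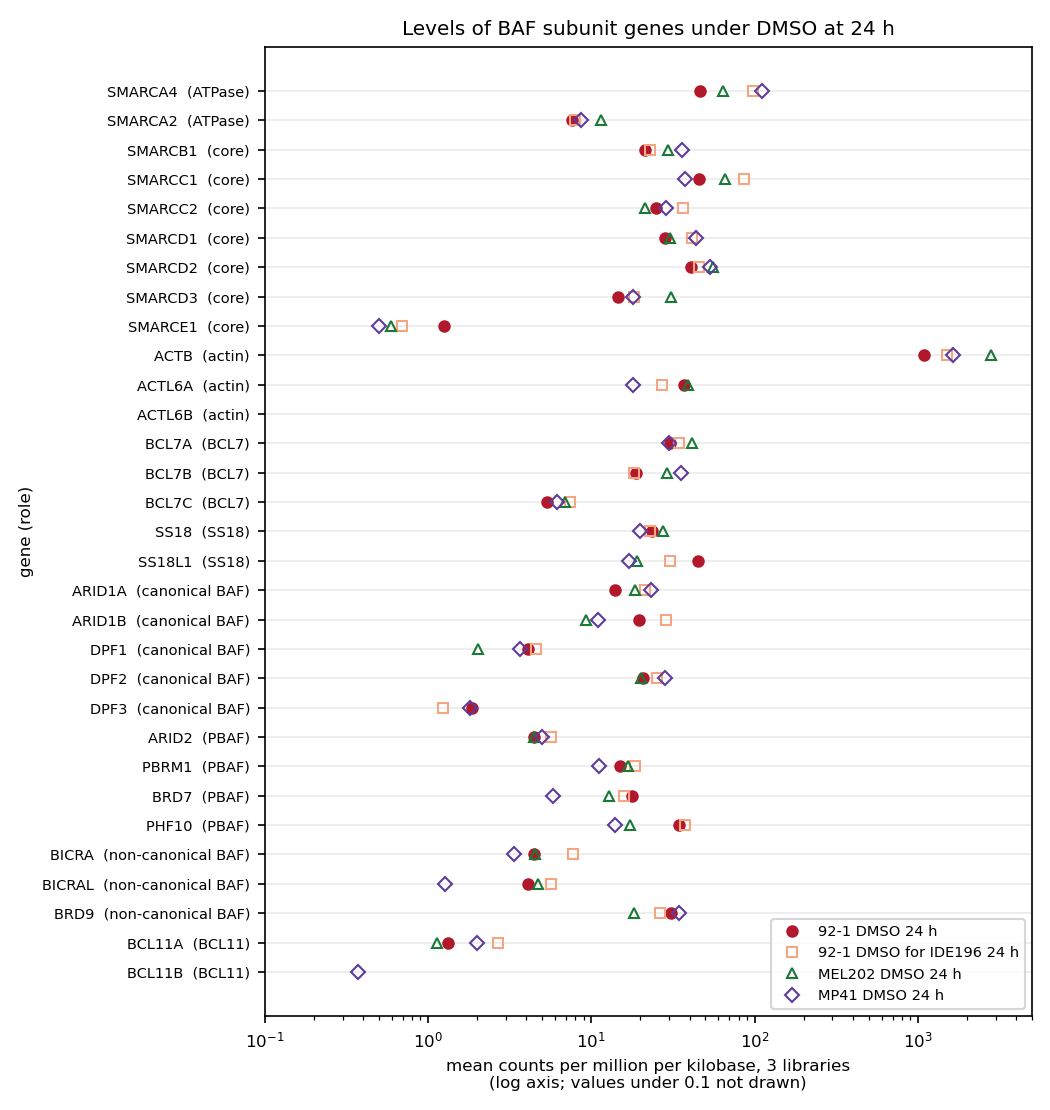
Mean level of each member under DMSO at 24 h, in CPM per kilobase on a log axis, over 3 libraries of each set; filled red circles are 92-1 of the FHT-1015 set, open orange squares 92-1 of the IDE196 set, green triangles MEL202 and purple diamonds MP41, and values under 0.1 are not drawn. ACTB lies at 1090 or more in each set and SMARCA4 above SMARCA2, and the SMARCA4 points of the sets of 92-1 lie at 46.6 and 97.4 with all 24 DMSO libraries scaled together.

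The other remodelling families, given for context, were also called in both directions at 24 h. With FHT-1015 in 92-1, 3 of 10 ISWI genes were higher and 5 lower, 5 and 8 of 19 CHD and NuRD genes, 2 and 8 of 19 tested INO80, SRCAP and TIP60 genes, and 11 and 4 of 22 Polycomb genes. Over all genes 29.2% were higher and 31.4% lower. The largest falls in these families were those of POLE3 (-1.58 ± 0.13), GATAD2A (-1.20 ± 0.08), UCHL5 (-1.34 ± 0.09) and EZH2 (-0.84 ± 0.08), the last being the methyltransferase of Polycomb repressive complex PRC2. With IDE196 at 24 h the counts were 5 higher and 5 lower, 5 and 8, 3 and 11, and 6 and 9 in the same order, beside 28.7% and 29.4% of all genes. The medians were -0.15, -0.14, -0.19 and 0.10 with FHT-1015 and -0.04, -0.12, -0.40 and -0.18 with IDE196, beside 0.16 and -0.13 for the BAF members and 0 and 0.03 for all genes tested.

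In the other lines 10, 19, 19 and 22 genes of these families were tested. The counts in MEL202 at 24 h were 2 higher and 1 lower for ISWI, 1 and 3 for CHD and NuRD, 0 and 1 for INO80, SRCAP and TIP60, and 2 and 0 for Polycomb, beside 8.69% and 10.1% of all genes. In MP41 they were 2 and 1, 3 and 5, 1 and 5, and 1 and 4, beside 17.4% and 18.7%. POLE3, a small histone-fold protein shared with DNA polymerase epsilon, was called lower in each line, by -0.99 ± 0.32 in MEL202 and -0.89 ± 0.18 in MP41. MTA3, a NuRD subunit, was called higher in each, by 1.03 ± 0.09 in 92-1, 1.00 ± 0.18 in MEL202 and 1.16 ± 0.17 in MP41.

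To account for every member, edgeR called SMARCD1, SMARCE1, BCL7B, BCL7C and PBRM1 in no drug comparison, nor the barely detected ACTL6B and BCL11B. Other analyses called some of them at 24 h, among them limma-voom for SMARCD1 and SMARCE1 in 92-1 and MP41 and for BCL7B in MP41, and GC and length offsets for SMARCD1 in 92-1 and PBRM1 in MP41 (adjusted p = 0.0201). Reads were counted without strand, so reads falling on annotated genes that overlap could not be assigned to either. SMARCE1 held only 4988 reads in all 48 libraries, and 19.79% of its exon length overlaps other annotated genes, among them AC073508.2 on the same strand. BCL7C held 11152 reads, against 54220 when the deposited counts by strand are summed, and BRD7, of whose exon length 42.43% overlaps other genes, held 65662 against 93207. The values of SMARCE1, BCL7C and BRD7 are therefore uncertain. A smaller gap was seen for SMARCD3 (44202 and 57014), ACTL6A (53253 and 73487), SMARCC2 (112239 and 135004) and PHF10 (41376 and 48102), and with summed strands 3 of 232 member values changed their call (BCL7A and BRD7 with FHT-1015 and SMARCD3 with IDE196, all in 92-1 at 24 h).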

How the data were processed

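RNA was sequenced from 48 libraries of 3 uveal melanoma lines in 16 groups of 3. The authors deposited 1 table of raw read counts per library, in the layout of STAR's gene counts, and the submitters' processing notes name the build hg38 and limma; other settings are not given in the sources used here. The unstranded count was used, since the first strand held 49.728 to 50.112% of stranded reads, and 92 spike-in rows without reads were left out. Gene names came from GENCODE 29, which held 58552 of the 58870 identifiers (47420 in the same version). With 11394088 to 32317711 reads per library, counting error is small for most members and large for DPF3 and BCL11B.

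Counts were tested with edgeR 4.0.16 (R 4.3.3; TMM scaling, filterByExpr, quasi-likelihood test), with Benjamini-Hochberg adjustment over all genes tested and a threshold of 0.05. Each drug fit used the 12 libraries of its line and set. Fits of 36, 24 and 24 libraries tested the difference between lines, between drugs and between DMSO levels. Scripts were tested on simulated data. Alternatives were DESeq2 1.42.0, limma-voom with quality weights per library (limma 3.58.1), relative log expression, no filter, GC and length offsets, summed strands, other sample sets, a replicate block, and each library left out. No libraries looked like copies of each other.

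The members and lists were chosen with earlier results of these data known. Every sample's value is given for SMARCA4, SMARCA2, the members called alike in the 3 lines, and the 2 called members with the largest rise and the 2 with the largest fall in each drug comparison. In the other lists the called gene with the largest rise or fall in a comparison may be named.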

Additional observations from a re-analysis of the deposited data

Results flagged for a closer look

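The effect of FHT-1015 differed between the 3 lines by the direct test of that difference for 4 members, 1 of them at both times. That was 4 of 30 members tested at 24 h, near the 12% of all genes, and 1 of 30 at 4 h, beside 1.38%. SS18L1 at 4 h had an adjusted p of 3.7e-06 (edgeR), with a log2 change of -1.59 in 92-1, one of -0.09 for MEL202 and one of -0.43 for MP41. At 24 h its adjusted p was 0.00434, with changes of -1.97, -1.13 and -1.62 in the same order. SMARCA2 at 24 h had an adjusted p of 0.0076, with changes of 0.73, -0.10 and 0.03. SMARCD2 had an adjusted p of 0.00459, with changes of -0.86, -0.22 and -1.03, and SMARCD3 an adjusted p of 0.00513, with changes of 0.95, 0.61 and 0.07. The lines also differed in the spread between replicates, and each line is a single set of libraries, so line and set cannot be told apart.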

How the results depend on the processing

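Of 2030 member values under alternative analyses, 1878 kept their direction and side of the threshold, 51 lost a call, 99 gained one and 2 reversed. Both reversals were ARID1B with GC and length offsets, at -0.04 (FHT-1015 in 92-1 at 24 h) and -0.15 (IDE196 at 24 h); the cause was not tested. Fitting all 48 samples together lost 21 of the 51 calls. Of 2784 values with a library left out, 83 lost a call, 24 gained one and 0 reversed.

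Counts of called members moved as follows. For FHT-1015 in 92-1 at 4 h the 7 higher became 14 with GC and length offsets and 3 with all 48 samples fitted. In MEL202 at 4 h the 1 higher became 2 and 4 under those settings, 0 with limma-voom, 0 with only the samples compared, and 0 to 1 with a library left out. In MEL202 at 24 h the 1 higher became 4 with DESeq2, 7 with the offsets, 7 with all samples, 11 with limma-voom, 3 without a filter, 9 with only the samples compared, 2 with relative log expression and 1 to 3 with a library left out. The 2 lower became 7 with limma-voom, 1 without a filter and 1 to 2 with a library left out. In MP41 at 4 h the 0 higher became 2 with the offsets and 1 with limma-voom, and the 0 lower became 1 with limma-voom. In MP41 at 24 h the 6 lower became 11 with limma-voom, 3 with only the samples compared and 4 to 11 with a library left out. Calls over all genes moved too. They were, in MEL202 at 24 h, 2984 of 15913 genes with relative log expression, 3898 with DESeq2, 4922 with the offsets, 5733 of 18871 with all samples, 8824 with limma-voom, 3075 of 33177 without a filter and 6256 of 15261 with only the samples compared. For MP41 at 24 h limma-voom called 9435 of 15543 genes and the fit of only the samples compared 3352 of 15115. In MEL202 at 4 h the offsets called 398, all samples 842, limma-voom 115 and only the samples compared 0 genes, and in MP41 at 4 h the offsets called 232 and limma-voom 650.

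For IDE196 at 4 h the 2 higher became 1 with the offsets, 0 with all samples, 4 with limma-voom, 1 without a filter and 0 to 4 with a library left out (0 without DMSO replicate 5 of 4 h, 4 without IDE196 replicate 3 of 24 h). The 2 lower became 0 with all samples and 1 to 2 with a library left out. At 24 h the 5 higher became 3 with the offsets, 3 with all samples and 3 to 6 with a library left out. The line difference at 4 h went from 1 to 2 with DESeq2 and 1 to 2 with a library left out, and that at 24 h from 4 to 7 with DESeq2, 1 without a filter and 4 to 8 with a library left out. The counts for IDE196 and for the line difference are not set here against the calls over all genes in the same analyses.

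Replicate numbers did not meet the bar for pairing, which was a correlation above 0.1 in every pair of a line: of 18 pairs, 7 did (range -0.32 to 0.51), and 11 correlated best with their own number. In MP41 all 6 pairs were positive (0.06 to 0.17) and all 6 correlated best with their own number, a hint from the data and not the design. With a replicate block the FHT-1015 counts higher and lower were 8 and 4, then 12 and 9 in 92-1, 1 and 0, then 1 and 2 in MEL202, and 0 and 0, then 6 and 7 in MP41 at 4 h and 24 h. Calls over all genes with the block were 5250 and 9825 of 15685 in 92-1 at 4 h and 24 h. They were 78 and 2887 of 15913 in MEL202, and 47 of 15543 in MP41 at 4 h. The block brought BCL11B in MP41 at 24 h and SMARCD3 in 92-1 at 4 h past the threshold and ended no call. For IDE196 the arms share no numbers, so no block could be fitted.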
